A study of Rattus norvegicus with 28 samples.

Results

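Fat cells surround and adhere to the aorta of the rat, and 41 genes of white and brown fat cells were followed here in 28 pools of aortic wall. The list of genes was chosen with earlier results of these data known, so its shares beside those of all probe sets are descriptions. Each gene was read from the probe sets that carry that gene symbol alone. Of the 41 genes, 37 had such a probe set, and 35 of these had a mean level of at least 4 on the log2 scale and were tested, among 13383 probe sets and 11750 genes in all. Fabp3 was measured only with a probe set of several symbols, and Fasn, Prdm16 and Mlxipl were not analysed here. The pools came from 2 regions of the aorta of untreated male Wistar rats whose age the labels do not state. The 14 low WSS pools were cut from the distal lesser curvature, where wall shear stress (WSS) is low and flow is disturbed, and the 14 high WSS pools from the greater curvature, where WSS is high and flow is uniform. Each pool held the whole wall of 5 animals and gave 1 array, and pools of the same number in the 2 regions came from the same animals and form a pair, so that 70 animals gave 14 pairs. The p-values therefore measure the spread between pools and not between single animals.

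White fat stores triglyceride in 1 large droplet and releases hormones such as leptin and resistin, whereas brown fat holds many small droplets and many mitochondria and burns fatty acids to make heat. Heat comes from uncoupling protein, Ucp1, which lets protons leak back into the mitochondrion. The deiodinase Dio2 activates thyroid hormone inside the brown fat cell and so supports this program. Both fat types make adiponectin, take up fatty acids with lipoprotein lipase and coat their droplets with perilipin. The fat around the thoracic aorta of rodents is largely brown in kind. In pieces of whole wall, fewer fat cells and less RNA per fat cell cannot be told apart.

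The promoters of 3 genes on which the comparison turned are shown first, namely Adipoq, which both fat types express, Ucp1, the marker of brown fat, and Dio2, the gene of brown fat whose difference between the regions ran the other way. Each run holds 300 bases, 250 before and 50 after the start site, in RefSeq sequence of build GRCr8. Adipoq lies at chr11:91240120-91240419, Ucp1 at chr19:41721372-41721671 and Dio2 at chr6:115410545-115410844, all on the minus strand, and each is written 5′ to 3′ as the gene is read. Capitals mark the TATA box (TATAAA), the CCAAT box (CCAAT, or its complement) and a C/EBP motif (TTGCNNCAA).
Adipoq: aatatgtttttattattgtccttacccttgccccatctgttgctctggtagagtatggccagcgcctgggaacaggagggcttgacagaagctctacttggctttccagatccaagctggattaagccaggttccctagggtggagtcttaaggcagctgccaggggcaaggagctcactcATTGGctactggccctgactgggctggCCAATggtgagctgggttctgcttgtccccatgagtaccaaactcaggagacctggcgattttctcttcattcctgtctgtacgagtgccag
Ucp1: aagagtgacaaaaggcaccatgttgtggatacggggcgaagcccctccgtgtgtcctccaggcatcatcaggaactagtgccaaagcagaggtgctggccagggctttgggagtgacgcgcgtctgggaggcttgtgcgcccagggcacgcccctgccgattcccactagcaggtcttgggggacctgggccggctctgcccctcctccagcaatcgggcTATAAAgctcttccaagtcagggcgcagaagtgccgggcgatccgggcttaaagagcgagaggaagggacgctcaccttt
Dio2: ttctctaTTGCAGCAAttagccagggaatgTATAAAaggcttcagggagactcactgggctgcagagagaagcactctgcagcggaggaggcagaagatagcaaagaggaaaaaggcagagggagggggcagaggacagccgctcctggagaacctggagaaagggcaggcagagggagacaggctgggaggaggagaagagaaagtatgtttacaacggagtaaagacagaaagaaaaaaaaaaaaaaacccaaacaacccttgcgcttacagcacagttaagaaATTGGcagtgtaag
Ucp1 had a TATA box 30 bases before its start. Adipoq had no TATAAA in this window but held CCAAT boxes 69 and 42 bases before the start, the first on the other strand. Dio2 held a TATA box 220 bases and a C/EBP motif 243 bases before the start, and a CCAAT box 37 bases after it on the other strand. The promoter table listed 27 of the 41 genes. Searched on both strands, TATAAA was found in 4 of the 27 (14.8%) and in 14.2% of all 33469 promoters of this length. CCAAT was found in 14 of the 27 (51.9%), against 37.5% of all promoters. TTGCNNCAA was found in Dio2 alone among the 27 and in 2.17% of all promoters. A match of letters is a description of the window and not a binding site.

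Fat cell genes were among the most variable genes of the arrays within each region. The level of Adipoq, which encodes adiponectin, was 4.82 at the lowest, 6.71 at the median and 10.21 at the highest in the low WSS pools. In the high WSS pools it was 4.14, 5.36 and 10.20. The ranges overlapped almost completely, and the highest pool exceeded the lowest 41.9-fold in low WSS and 66.5-fold in high WSS. Ucp1 had levels of 4.47, 7.27 and 10.94 (lowest, median, highest) in low WSS and of 4.35, 5.70 and 10.05 in high WSS. That is an 89.1-fold range in low WSS and a 51.8-fold range in high WSS. The SD within a region was 2.17 for Ucp1, the largest of all 13383 probe sets tested, followed by Thrsp, Scd, Adipoq, Dgat2, Gpd1 and Pck1. This SD exceeded 1 in 17 of the 35 fat cell genes and in 35 of all 13383 probe sets (0.262%), and its median was 0.93 over the fat cell genes and 0.16 over all probe sets. Of the 100 probe sets with the largest SD, 25 belonged to the fat cell genes.

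**Figure D1:**
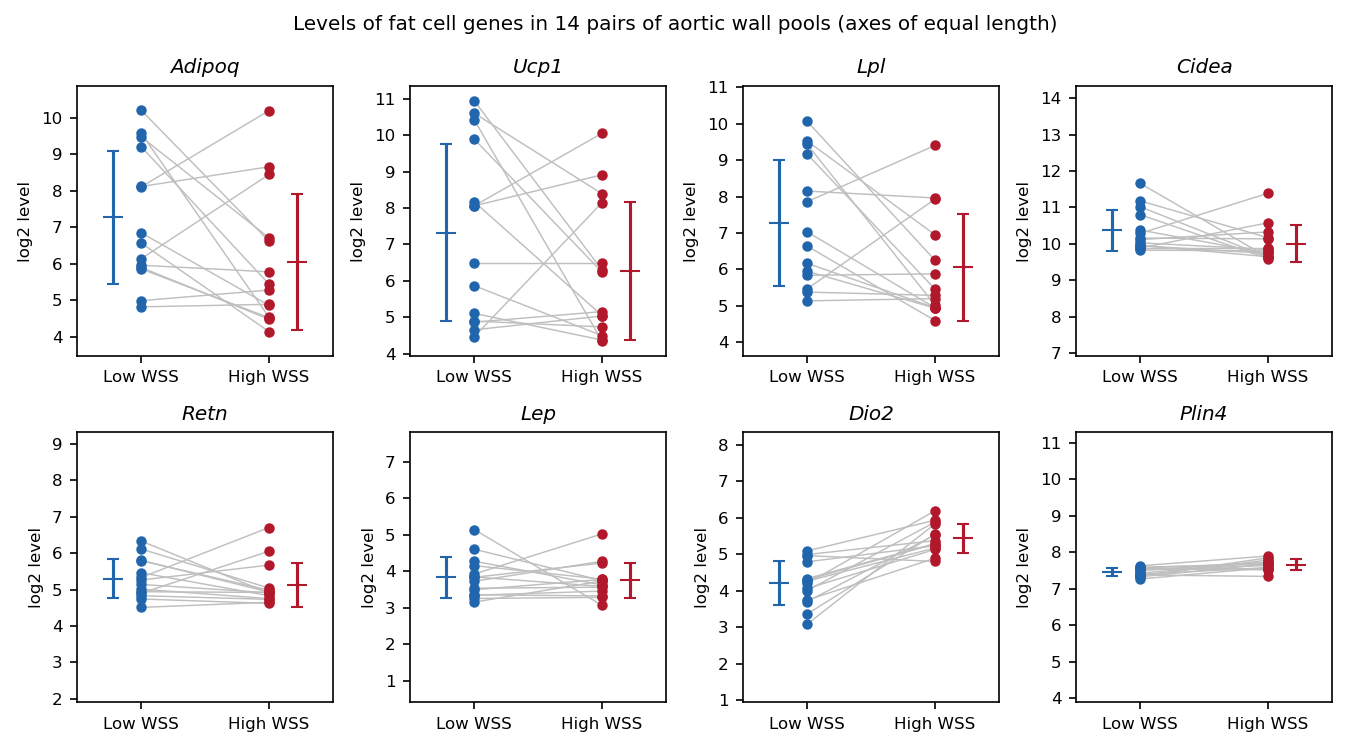
Log2 level (vertical axis, each spanning the same number of units) of 8 fat cell genes in the 14 low WSS pools (blue) and the 14 high WSS pools (red). Each point is 1 pool, grey lines join the pools of a pair, and the bars beside the points give the mean and SD. Adipoq, Ucp1 and Lpl spread over several units in both regions and the grey lines cross, whereas Dio2 was lower in low WSS in 13 of 14 pairs with a narrower spread.

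Cidea, Retn, Lep and Elovl3, markers of a single fat type, were spread less widely than Adipoq. Ucp1 was not, and neither was Cpt1b in low WSS, a gene grouped with brown fat here. The SD of Cpt1b was 1.97 in low WSS and 1.48 in high WSS, beside 1.81 and 1.86 for Adipoq. Cidea, a droplet protein of brown fat, had levels of 9.83, 10.14 and 11.66 (lowest, median, highest) in low WSS and of 9.60, 9.83 and 11.39 in high WSS. Its probe set thus read 9.60 or more in every pool, also where Adipoq and Ucp1 were near their lowest levels. In high WSS pool 2 Cidea stood at 9.63, beside 4.53 for Adipoq and 4.35 for Ucp1. Levels of different probe sets are not on 1 scale, so these values do not rank the 3 genes. Whether the reading in such pools is Cidea RNA or background of the probe set was not tested. Retn, which encodes resistin, a hormone of white fat in rodents, had levels of 4.51, 5.20 and 6.33 in low WSS and of 4.62, 4.92 and 6.70 in high WSS. In Cidea and Retn the regions overlapped. Lep, which encodes leptin, stayed near the low end of the scale, with levels of 3.15, 3.77 and 5.14 in low WSS and of 3.06, 3.67 and 5.02 in high WSS. Elovl3, a fatty acid elongase of brown fat, had levels of 2.60, 2.97 and 3.50 in low WSS and of 2.58, 2.97 and 3.28 in high WSS. The means of Lep and Elovl3 lay under 4, so neither entered the limma comparison of the regions. Cfd, which encodes adipsin, had levels of 3.93, 4.45 and 6.21 in low WSS and of 3.49, 4.36 and 6.36 in high WSS. Plin1, the perilipin that coats the droplets of fat cells, had levels of 5.04, 6.17 and 9.26 in low WSS and of 4.97, 5.54 and 9.21 in high WSS.

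The same pools were high for nearly every fat cell gene. In low WSS, pool 7 held the highest level of 25 of the 35 genes and pool 1 that of 7 more. Low WSS pools 1, 2, 3 and 7 were among the 4 highest pools for 34, 35, 32 and 34 of the 35 genes. In high WSS, pool 4 held the highest level of 32 of the 35 genes, and pools 1, 4, 5 and 6 were among the 4 highest for 27, 34, 33 and 32 genes. Of these 2 sets of 4 pools, only pair 1 was in both. Pools 4 and 5 came next for Adipoq in low WSS, at 8.11 and 8.12 beside a median of 6.71. In high WSS these pools stood at 10.20 and 8.66 beside a median of 5.36, so pairs 4 and 5 were above the median in both regions. Low WSS exceeded high WSS in 33, 34, 31 and 34 of the 35 genes in pairs 1, 2, 3 and 7, with median differences of 1.86, 2.07, 1.86 and 2.41. In pairs 4 and 6, 0 of the 35 genes were higher in low WSS, and the median differences were -1.61 and -1.15. In the other 8 pairs the median difference ran from -0.20 in pair 5 to 0.69 in pair 9.

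**Figure D2:**
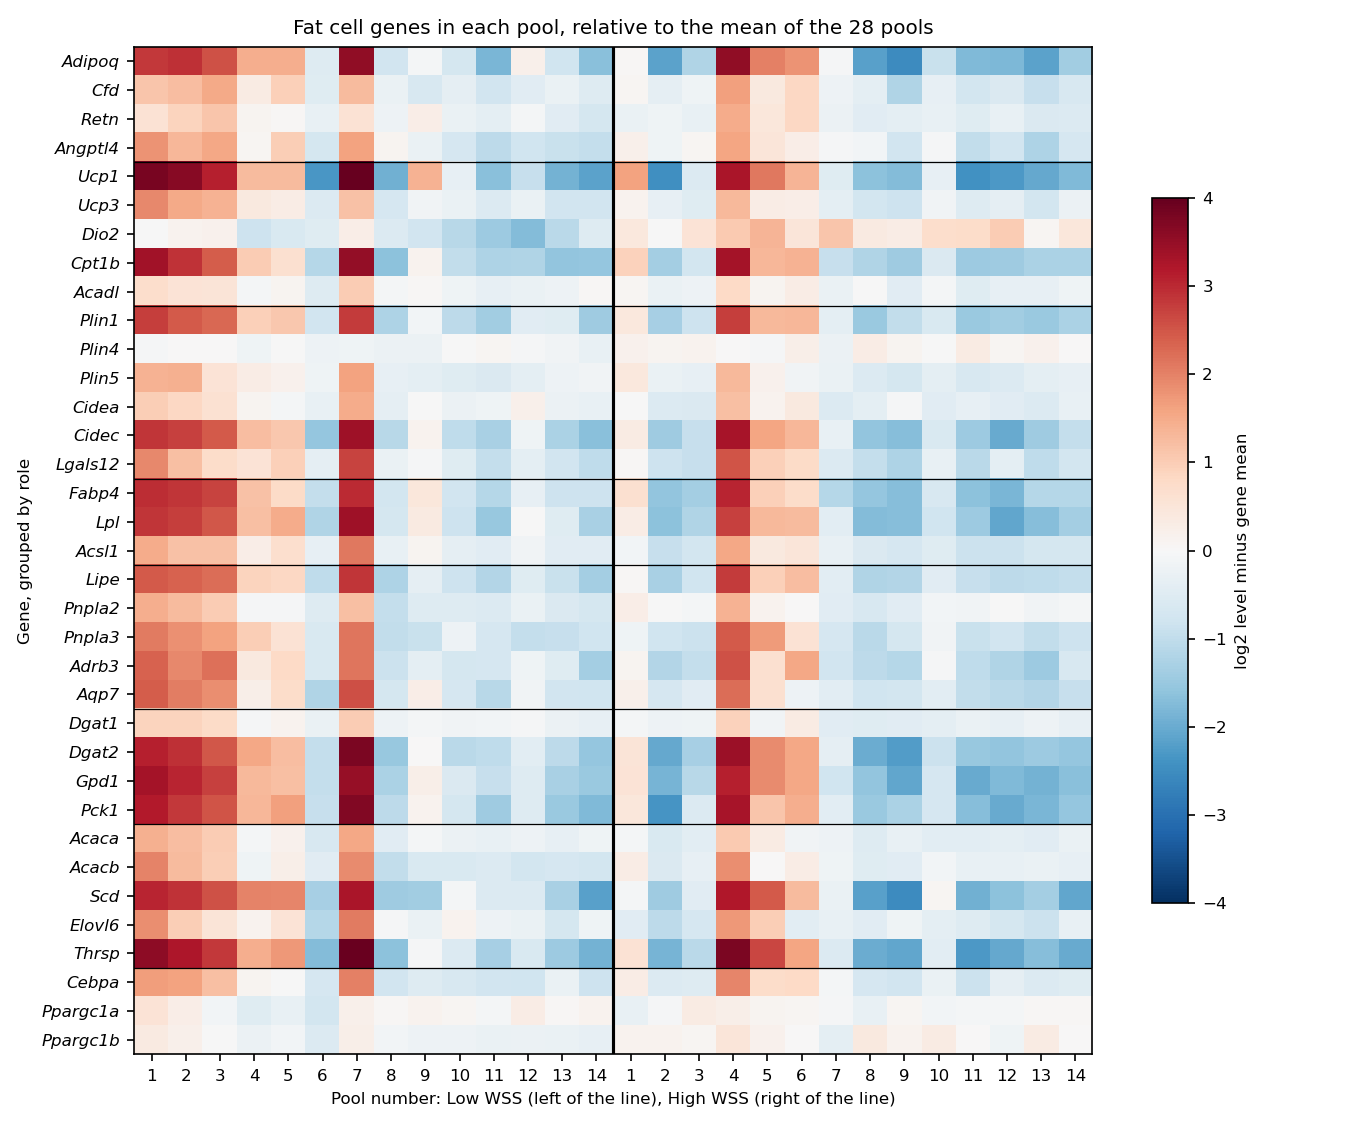
Log2 level of each of the 35 fat cell genes (rows, grouped by role) less that gene's mean over the 28 pools, in the low WSS pools 1 to 14 (left of the line) and the high WSS pools 1 to 14 (right of the line). Red is above the mean and blue below it. Columns 1, 2, 3 and 7 of low WSS and 4, 5 and 6 of high WSS are red over nearly all rows, and the rows of Dio2, Plin4, Ppargc1a and Ppargc1b stay in paler colours. Columns 4 and 5 of low WSS are a paler red over most rows.

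To ask whether white and brown markers varied together, the level of each gene was related to that of Adipoq over the 14 pools of each region and over the 14 pair differences. The largest gap between neighbouring Adipoq levels was 1.26 of a range of 5.39 in low WSS and 1.74 of 6.06 in high WSS. It lay between 8.11 (pool 4) and 6.85 (pool 12) in low WSS. In high WSS it lay between 8.45 (pool 6) and 6.71 (pool 1). Whether the pools form separate groups was not tested. Ucp1 followed Adipoq in low WSS (Pearson's r = 0.94, Spearman's rho = 0.86, permutation p = 1e-05 and 0.00019, adjusted p = 0.00224 and 0.0229). It did so in high WSS as well (r = 0.94, rho = 0.81, permutation p = 2e-05 and 0.00076, adjusted p = 0.00304 and 0.0472). Over the pair differences, r and rho were both 0.95 (permutation p = 1e-05, adjusted p = 0.00224 and 0.00508). Without the 2 pools farthest from the median of Adipoq, r of Ucp1 was 0.91 in low WSS and 0.87 in high WSS, and 0.92 over the pair differences. For the genes with r over 0.9 in high WSS, r was 0.80 or more without these 2 pools. Some lower r leaned on them, as that of Elovl6 in high WSS, which was 0.80 with them and 0.29 without. The p-values were adjusted over all 40146 relations of Adipoq with the probe sets tested in the 3 sets, and 1e-05 is the smallest that 100000 resamples can give.

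A positive relation of r passed an adjusted permutation p of 0.05 in 31 of 34 fat cell genes in low WSS, where 5.12% of all probe sets did so. In high WSS 29 of 34 passed, against 2.52% of all probe sets, and over the pair differences 30 of 34 passed, against 3.60%. The median r was 0.94 in low WSS, 0.94 in high WSS and 0.93 over the pair differences, and r exceeded 0.9 in 26, 20 and 20 of the 34 genes. Among all probe sets r exceeded 0.9 in 1.17%, 0.441% and 0.456%. The white marker Retn followed Adipoq too (r = 0.90 in low WSS and 0.91 in high WSS, permutation p = 3e-05 and 0.00015, adjusted p = 0.00366 and 0.00922), although its rho of 0.73 in high WSS had a permutation p of 0.00455 and an adjusted p of 0.11. The brown marker Cidea gave r = 0.90 in low WSS and 0.83 in high WSS (permutation p = 1e-05 and 0.00076, adjusted p = 0.00224 and 0.0244), and its rho in high WSS was 0.50 (permutation p = 0.0723, adjusted p = 0.369). All these points share their array and its normalization.

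The exceptions in both regions were Plin4, Dio2 and Ppargc1a. Plin4, another perilipin, had r of 0.26 in low WSS and of -0.34 in high WSS (permutation p = 0.366 and 0.232, adjusted p = 0.661 and 0.535). Ppargc1a, a coactivator of genes for mitochondria and heat, had r of 0.23 in low WSS and of 0.37 in high WSS (permutation p = 0.438 and 0.186, adjusted p = 0.716 and 0.483). For Dio2, r was 0.73 in low WSS and 0.60 in high WSS (permutation p = 0.00379 and 0.0223), which gave adjusted p of 0.0607 and 0.162. Without the 2 pools farthest from the Adipoq median these values were 0.58 and 0.31. In high WSS, Pnpla2 and Ppargc1b did not pass either, and Ppargc1b had r of 0.16 there (permutation p = 0.593, adjusted p = 0.816), against 0.80 in low WSS (permutation p = 0.00031, adjusted p = 0.0143), a difference between regions that was not tested.

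**Figure D3:**
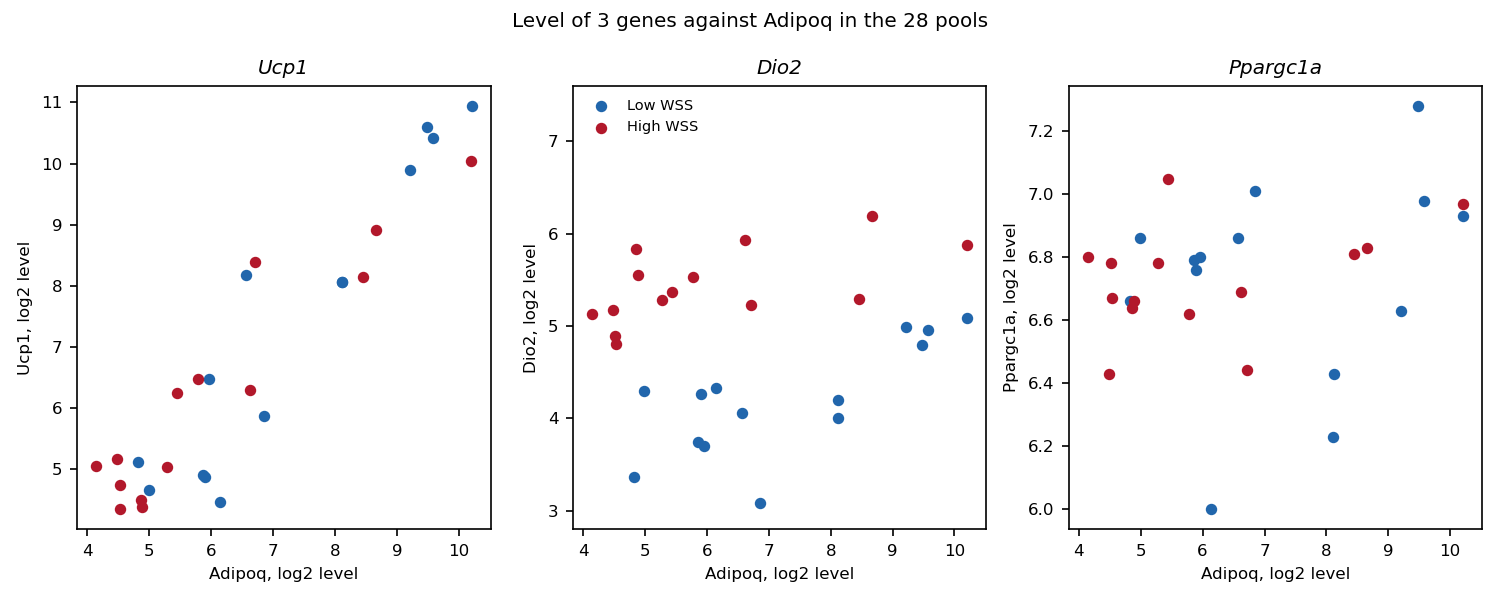
Log2 level of Ucp1, Dio2 and Ppargc1a (vertical axes) against the log2 level of Adipoq (horizontal axes) in the same pool, for the 14 low WSS pools (blue) and the 14 high WSS pools (red). Ucp1 lies on 1 band for both regions, Dio2 lies in a lower band in low WSS and a higher band in high WSS, and Ppargc1a shows no band.

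The comparison of low with high WSS asked whether the regions differ in these genes. Expression was higher in low WSS for 3 of the 35 genes, Lpl, Fabp4 and Acsl1, all for the uptake or activation of fatty acids, and lower for 3, Dio2, Plin4 and Ppargc1b. The call was made in a limma fit that blocked on the pair, at an adjusted p (Benjamini-Hochberg over all 13383 probe sets) under 0.05. Thus 17.1% of the genes passed, while 42.2% of all probe sets passed, 20.5% higher and 21.7% lower in low WSS. The other 29 genes did not pass. The difference was above 0 in 32 of 35 genes with a median of 0.51, beside a median of -0.0032 over all probe sets, and the SE ran from 0.05 to 0.61. In none of the 35 genes were the 2 regions free of overlap, against 1.7% of all probe sets.

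**Figure D4:**
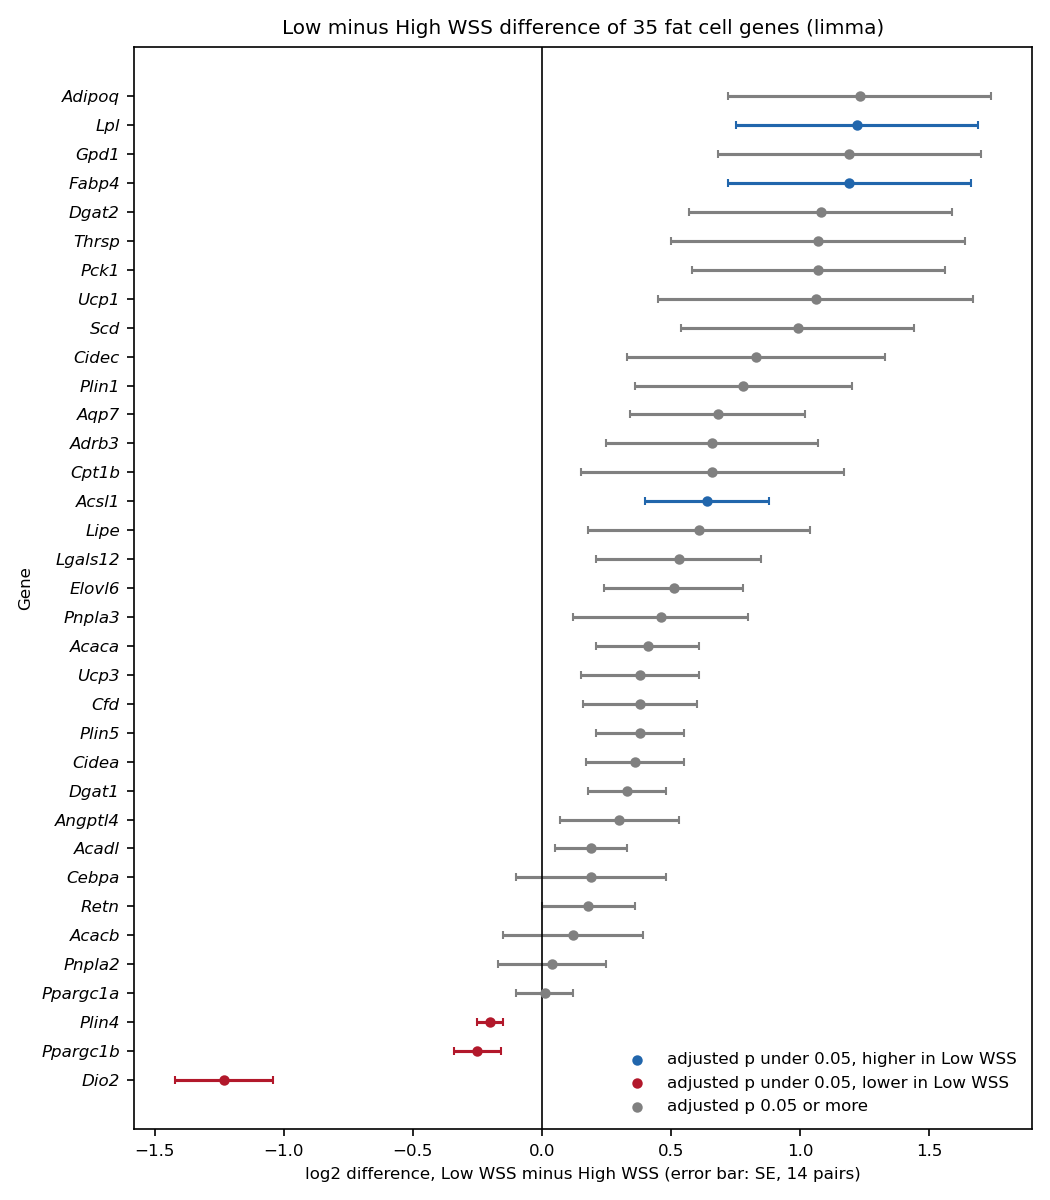
Log2 difference, low minus high WSS, of the 35 fat cell genes tested (horizontal axis), with the SE from limma over 14 pairs as bars. Blue marks the 3 genes higher and red the 3 genes lower in low WSS at an adjusted p under 0.05, and grey marks the 29 others, most of which lie right of 0 with an SE of up to 0.61.

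Of the 35 genes tested, Dio2 had the smallest adjusted p. Its levels were 3.08, 4.23 and 5.09 (lowest, median, highest) in the low WSS pools and 4.80, 5.33 and 6.19 in the high WSS pools, so that the regions overlapped only at the edge. It was lower in low WSS in 13 of 14 pairs, by 1.23 on the log2 scale in the mean (log2 difference -1.23, SE 0.19, limma adjusted p = 5.27e-05), which is a 2.35-fold higher level in high WSS. The pair differences ran from -2.74 in pair 12 to 0.17 in pair 2. Dio2 stood at 5.83 in high WSS pool 12, where Adipoq was 4.86. In low WSS pool 7 it stood at 5.09, where Adipoq was 10.21. Which cells of the wall gave the signal of Dio2 was not tested. Plin4 had levels of 7.27, 7.47 and 7.63 in low WSS and of 7.34, 7.68 and 7.90 in high WSS, and was lower in low WSS in 11 of 14 pairs (log2 difference -0.20, SE 0.05, limma adjusted p = 0.00206). Ppargc1b, a coactivator related to Ppargc1a, had levels of 7.48, 7.82 and 8.38 in low WSS and of 7.64, 8.17 and 8.52 in high WSS. It was lower in low WSS in 11 of 14 pairs (log2 difference -0.25, SE 0.09, limma adjusted p = 0.0297). Plin4 and Ppargc1b were thus small differences with small spread. The call of Dio2 and of Plin4 was kept without any 1 pair, whereas that of Ppargc1b was lost without pair 4, 6, 8, 9, 10, 13 or 14 (limma adjusted p = 0.0508 to 0.0618), in the methods' paired t-test (adjusted p = 0.0558) and with the smooth muscle genes Tagln and Cnn1 as covariates (log2 difference -0.13, adjusted p = 0.373).

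Lpl, the lipase that frees fatty acids from circulating lipoproteins, had levels of 5.14, 6.84 and 10.06 (lowest, median, highest) in low WSS and of 4.60, 5.37 and 9.40 in high WSS. Low WSS exceeded high WSS in 10 of 14 pairs (log2 difference 1.22, SE 0.47, limma adjusted p = 0.0447), or 2.32-fold. Fabp4, which carries fatty acids in the fat cell, had levels of 5.04, 6.26 and 9.18 in low WSS and of 4.35, 5.05 and 9.25 in high WSS. Its difference was 1.19 (SE 0.47, limma adjusted p = 0.0495), positive in 10 of 14 pairs. Acsl1, which links fatty acids to coenzyme A, had levels of 7.46, 7.90 and 10.03 in low WSS and of 7.01, 7.29 and 9.47 in high WSS, with a difference of 0.64 (SE 0.24, limma adjusted p = 0.0433), positive in 12 of 14 pairs. The 3 genes passed by a small margin and rested on few pairs. None of the 3 passed without any 1 of pairs 1, 2, 3, 7, 8, 9 and 12, where the adjusted p of Lpl was 0.0604 to 0.0921, that of Fabp4 0.0638 to 0.102 and that of Acsl1 0.0509 to 0.0901, and single calls were also lost without pair 13 (Lpl and Fabp4), 11 or 14 (Fabp4 and Acsl1) or 5 (Acsl1). In pairs 4 to 14 alone their differences were 0.58, 0.53 and 0.31 (limma adjusted p = 0.303, 0.327 and 0.304). There 0 of 35 genes were higher, also at an unadjusted p of 0.05, and 3 were lower, while 19.1% of all probe sets were higher and 22.7% lower (41.8% in either direction). Pairs 1 to 3 were left out with their large positive differences in these genes known, so the loss of the calls is no separate test of them. Without pair 4, 14 fat cell genes passed as higher in low WSS, and without pair 6, 11 did.

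The remaining genes are given by role as log2 differences, low minus high WSS, and none of those named in this paragraph passed the test. Among the hormones and secreted factors, Adipoq differed by 1.23 (SE 0.51, limma adjusted p = 0.0607), Cfd by 0.38 (SE 0.22), Retn by 0.18 (SE 0.18) and Angptl4, an inhibitor of lipoprotein lipase, by 0.30 (SE 0.23). Of these 4, 1 passed at an unadjusted p of 0.05 and 0 in the methods' paired t-test after adjustment. For heat and fatty acid oxidation, Ucp1 differed by 1.06 (SE 0.61, limma adjusted p = 0.179), Ucp3, a related mitochondrial carrier, by 0.38 (SE 0.23), Cpt1b, which admits fatty acids to the mitochondrion, by 0.66 (SE 0.51), and the dehydrogenase Acadl by 0.19 (SE 0.14). The difference of Ucp1 was smaller than its SD of 2.17 within a region. On the droplet, Cidec differed by 0.83 (SE 0.50), Plin1 by 0.78 (SE 0.42), Lgals12 by 0.53 (SE 0.32), Plin5 by 0.38 (SE 0.17) and Cidea by 0.36 (SE 0.19). In triglyceride synthesis, Gpd1, which supplies the glycerol backbone, differed by 1.19 (SE 0.51), Dgat2 by 1.08 (SE 0.51), Pck1 by 1.07 (SE 0.49) and Dgat1 by 0.33 (SE 0.15). Of these 4, 3 passed at an unadjusted p of 0.05 and 0 in the paired t-test. In triglyceride breakdown, the glycerol channel Aqp7 differed by 0.68 (SE 0.34), the adrenergic receptor Adrb3 by 0.66 (SE 0.41), hormone-sensitive lipase Lipe by 0.61 (SE 0.43), Pnpla3 by 0.46 (SE 0.34) and adipose triglyceride lipase Pnpla2 by 0.04 (SE 0.21). Of these 5, 0 passed at an unadjusted p of 0.05 or in the paired t-test. A second, dimmer probe set of Lipe spread less and differed by -0.10 (SE 0.08, limma adjusted p = 0.382). In fatty acid synthesis, Thrsp differed by 1.07 (SE 0.57), the desaturase Scd by 0.99 (SE 0.45), the elongase Elovl6 by 0.51 (SE 0.27), and the acetyl-CoA carboxylases Acaca by 0.41 (SE 0.20) and Acacb by 0.12 (SE 0.27). Of these 5, 1 passed at an unadjusted p of 0.05 and 0 in the paired t-test. Among regulators, Cebpa differed by 0.19 (SE 0.29) and Ppargc1a, at levels of 6.00, 6.80 and 7.28 in low WSS and of 6.43, 6.73 and 7.05 in high WSS, by 0.01 (SE 0.11, limma adjusted p = 0.974), or by -0.00 with each array centred on its median.

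White and brown markers were then set against Adipoq by asking whether a marker differed between the regions by another amount than Adipoq did in the same pairs. The marker's low minus high WSS difference less that of Adipoq was -2.46 for Dio2 (SE 0.50, negative in 12 of 14 pairs, exact sign-flip permutation test, two-sided p = 0.000854, adjusted p = 0.00427 over 5 comparisons). For Ucp1 it was -0.17 (SE 0.23, negative in 9 of 14 pairs, exact p = 0.463), so the brown marker Ucp1 and Adipoq differed by amounts that could not be separated. For Cidea it was -0.87 (SE 0.40, negative in 8 of 14 pairs, exact p = 0.0507, adjusted p = 0.0633). For the white marker Retn it was -1.05 (SE 0.39, negative in 9 of 14 pairs, exact p = 0.0198, adjusted p = 0.0389). For Lep it was -1.15 (SE 0.44, negative in 10 of 14 pairs, exact p = 0.0233, adjusted p = 0.0389), but the mean level of Lep was under 4, so nothing is read from this value. These 2 calls were lost in pairs 4 to 14 alone, where the values were -0.59 for Retn and -0.58 for Lep, and without any 1 of pairs 1, 2, 3, 7, 8, 9, 12 or 13, while that of Cidea was gained without pair 4 (-1.02) or pair 6 (-1.06). Retn and Cidea also had narrower ranges over the pools than Adipoq, and the part of these ranges in their values was not tested.

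When the level of Adipoq was added to the fit as a covariate beside the pair, a setting chosen after seeing the data, 0 of the other 34 genes were higher in low WSS, also at an unadjusted p of 0.05, and 8 (23.5%) were lower, while 17.8% of all probe sets were higher and 20.4% lower (38.2% in either direction). The 8 genes were Dio2 at -1.48 (SE 0.18, limma adjusted p = 8.05e-06), Ppargc1b at -0.39 (SE 0.07, adjusted p = 0.000523), Plin4 at -0.23 (SE 0.05, adjusted p = 0.00296), Cebpa at -0.46, Retn at -0.24, Pnpla2 at -0.38, Cidec at -0.34 and Lipe at -0.38 (adjusted p = 0.0077 to 0.0464 for these 5). The share of genes lower in low WSS was thus near that of all probe sets, and Dio2 kept its difference. The pair differences of 30 of the 34 genes followed those of Adipoq (median r of 0.93 over the 34). The covariate therefore takes out the difference that these genes share with Adipoq. The count of 0 higher genes cannot tell whether the regions differ.

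Other genes of fat metabolism were taken from 7 further lists of 78 genes, of which 61 were tested. Of these, 11 passed with higher levels in low WSS and 5 with lower levels, and 45 did not pass, beside the 20.5% of all probe sets that were higher and the 21.7% that were lower. Among 10 transcription factors tested, Nr1h3, the liver X receptor alpha (0.31, limma adjusted p = 0.0152) and Ebf1 (0.13, adjusted p = 0.0108) were higher, and Rxra, the partner receptor of Pparg, was lower (-0.23, adjusted p = 0.000211). Pparg, the main regulator of fat cell formation, had levels of 4.86, 5.36 and 8.45 (lowest, median, highest) in low WSS and of 4.38, 5.03 and 8.03 in high WSS, and its difference of 0.52 did not pass (SE 0.34, adjusted p = 0.228). In uptake and triglyceride synthesis (8 tested), Gpihbp1, which anchors lipoprotein lipase to capillaries (0.54, adjusted p = 0.0168), and the glucose transporter Slc2a4 (0.24, adjusted p = 0.00266) were higher, and the insulin receptor Insr (-0.20, adjusted p = 0.000445) and its substrate Irs1 (-0.16, adjusted p = 0.00491) were lower. Of 10 genes of the droplet and its breakdown, the seipin gene Bscl2 was higher (0.17, adjusted p = 0.0204) and the monoglyceride lipase Mgll was lower (-0.22, adjusted p = 0.00109), with Fitm1 under a level of 4. In the list of fatty acid synthesis (7 tested), Elovl5 (0.12, adjusted p = 0.0126) and Scd2 (0.16, adjusted p = 0.0167) were higher. The only lower gene of this list was Hsd11b1, which activates glucocorticoid and does not itself make fatty acids (-0.46, adjusted p = 9.97e-05). Of 14 genes of fatty acid oxidation, Hadha (0.36, adjusted p = 0.0304) and Acot2 (0.25, adjusted p = 0.0268) were higher and 0 were lower (1 at an unadjusted p of 0.05 and 1 in the paired t-test after adjustment). Neither Hadha nor Acot2 passed in the paired t-test, with adjusted p of 0.0623 for Hadha and 0.0508 for Acot2. Of 8 further genes of classical brown fat, the potassium channel Kcnk3 (0.44, SE 0.07, adjusted p = 6.91e-05) and Mpzl2 (0.49, adjusted p = 0.0435) were higher, 0 were lower (1 at an unadjusted p of 0.05 and 0 in the paired t-test), and Lhx8 and Slc27a2 were under a level of 4. In the paired t-test Kcnk3 passed and Mpzl2 did not (adjusted p = 0.0849). Kcnk3 varied little within a region (SD 0.31 in low WSS and 0.27 in high WSS). Of the same list, Otop1 (SD 1.64 and 1.08) and Cox8b (SD 1.18 and 0.98) varied more. They differed by 0.70 and 0.24 and did not pass (limma adjusted p = 0.2 and 0.608). Of 4 further genes of white fat, 0 passed, also at an unadjusted p of 0.05 and in the paired t-test, and Hoxc8, Tcf21 and Wt1 were under a level of 4.

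Markers of other cells of the wall were read in the same pools, as the mean level of each list, and their calls between the regions stand beside 42.2% of all probe sets that passed. The contractile smooth muscle list, 7 genes, lay at 10.85 to 11.38 in low WSS and at 10.74 to 11.44 in high WSS, and 2 of its genes were lower in low WSS (Lmod1, -0.25, and Mylk, -0.11). Its relation with Adipoq was negative in high WSS (r = -0.83, rho = -0.72, permutation p = 0.00031 and 0.00447, adjusted p = 0.00106 and 0.0119 over 16 relations, r = -0.67 without 2 pools) and did not pass in low WSS (r = -0.42, permutation p = 0.136, adjusted p = 0.168). The endothelial list, 8 genes, lay at 6.52 to 7.47 in low WSS and at 6.38 to 7.57 in high WSS, and 0 of its genes passed between the regions, also at an unadjusted p of 0.05 and in the paired t-test. It followed Adipoq in low WSS (r = 0.94, rho = 0.84, permutation p = 1e-05 and 0.00032, adjusted p = 8e-05 and 0.00491), and in high WSS its r was 0.61 (permutation p = 0.0188, adjusted p = 0.0273), or 0.31 without 2 pools. The list of capillary endothelium, 4 genes, lay at 7.53 to 8.17 in low WSS and at 7.35 to 7.99 in high WSS, and followed Adipoq with r of 0.81 in both regions (permutation p = 0.00033 in low WSS and 0.00052 in high WSS, adjusted p = 0.00106 and 0.00139). The macrophage list, 10 genes, lay at 5.57 to 6.50 in low WSS and at 5.89 to 6.47 in high WSS, with r of 0.74 in low WSS and of 0.61 in high WSS (permutation p = 0.00332 and 0.0184, adjusted p = 0.00664 and 0.0273), but its rho of 0.37 in high WSS did not pass (permutation p = 0.192, adjusted p = 0.22). The list of fibroblasts and adventitia, 9 genes, lay at 9.71 to 10.27 in low WSS and at 9.94 to 10.45 in high WSS, with r of 0.69 in low WSS and of 0.75 in high WSS (permutation p = 0.00782 and 0.00328, adjusted p = 0.0139 and 0.00664). The Schwann cell list, 4 genes, lay at 6.06 to 7.02 in low WSS and at 6.07 to 7.21 in high WSS, with r of 0.93 in low WSS and of 0.91 in high WSS (permutation p = 1e-05 and 0.00012, adjusted p = 8e-05 and 0.00064). In high WSS its rho was 0.66 (permutation p = 0.0122, adjusted p = 0.0263), and r was 0.77 without 2 pools. Within this list Mbp (SD 0.79 in low WSS and 0.69 in high WSS) and S100b (0.50 and 0.53) varied most. Sox10 (0.21 and 0.22) and Pmp22 (0.08 and 0.09) varied little. These lists share genes with fat, since Gpihbp1 was also in the list of uptake and S100b in that of brown fat. Between the regions, 2 capillary genes were higher (Gpihbp1 and Car4), 1 macrophage gene was lower (Aif1), 1 Schwann cell gene was lower (Pmp22), and of the fibroblast genes 3 were higher and 4 lower, among them Dpt (-0.65), Col3a1 (0.23), Dpep1 (-0.46) and Col1a2 (0.15). Of 10 genes of heart and skeletal muscle tested, 3 were higher and 3 lower, with Ckm at -0.68, Casq2 at 0.30, Myh6 at -0.28 and Ryr2 at 0.21, and the heart genes Myh7, Myl2, Tnni3, Tnnc1 and Nppa were under a level of 4. Over its 15 genes the muscle list lay at 5.39 to 5.81 in low WSS and at 5.49 to 5.96 in high WSS, with r of -0.20 in low WSS and of 0.33 in high WSS (permutation p = 0.487 and 0.251, adjusted p = 0.487 and 0.286). Of the mesothelium list, 2 genes were tested and 0 passed, also at an unadjusted p of 0.05 and in the paired t-test, while Upk3b, Krt19 and Wt1 were under a level of 4. Over its 5 genes the list lay at 3.47 to 3.78 in low WSS and at 3.50 to 3.93 in high WSS, with r of -0.49 in low WSS and of 0.27 in high WSS (permutation p = 0.0753 and 0.34, adjusted p = 0.1 and 0.362). The part of these cells in the differences of the fat cell genes was not tested.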

How the data were processed

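Pieces of aortic wall from 28 pools were measured on Affymetrix Rat Gene 1.1 ST arrays, 1 per pool. The authors deposited log2 levels made with RMA (background correction, quantile normalization, summary per probe set), with build rn4 named in the submitters' processing notes. Gene symbols were taken from the platform annotation, in which 18644 of 29214 probe sets carried 1 symbol, 962 several and 9608 none. Probe sets with a symbol and a mean level of at least 4 were tested (13383), and a gene is represented by its brightest probe set with 1 symbol.

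Array medians were 4.85 to 4.92 in low WSS and 4.88 to 5.00 in high WSS, and r between arrays was 0.9792 to 0.9965. No depth exists for arrays, and their number limits the precision.

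Regions were compared with limma 3.58.1 in R 4.3.3 with the pair as a block. The series description states the pairing of pools, and deviations of paired pools from their region's mean correlated at -0.012 to 0.481, over 0.1 in 11 of 14 pairs and at 0.039, -0.012 and 0.002 in pairs 1, 2 and 3 (mean of -0.017 between other pools). Simulated data with 50 changed probe sets per size gave 41, 50, 50 and 50 recovered at log2 changes of 0.3, 0.6, 1 and 2, with 10 false calls. The changed probe sets were drawn at random from all those tested, whose median SD within a region was 0.16. That median was 0.93 for the fat cell genes, so these counts do not give the recovery for them. Relations and sign-flip tests used Python 3.11.15, numpy 2.4.6 and scipy 1.17.1. Alternatives were no replicate block, the methods' paired t-test, trend and robust estimation, other filters, centring, a second quantile normalization, Tagln and Cnn1 or Adipoq as covariates, pairs 4 to 14 alone, and each pair left out.

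The fat cell genes, their roles and all lists were chosen with earlier results of these data known. So was the setting of pairs 4 to 14 alone. It leaves out pairs 1 to 3, whose large differences in fat cell genes (medians of 1.86, 2.07 and 1.86) were known. Pair 7, with a median of 2.41, was kept. Pairs 1 to 3 are also the pairs whose pools did not correlate over 0.1. Levels are given for genes that passed and for Adipoq, Lep, Retn, Cfd, Ucp1, Cidea, Dio2, Elovl3, Plin1, Fabp4, Lpl and Ppargc1a, and from each further list up to 4 genes with the smallest adjusted p and those under a level of 4. Pparg was added after its values were seen. Promoters came from RefSeq, build GRCr8. Of the 41 genes, 14 were not in that table.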

Additional observations from a re-analysis of the deposited data

How the results depend on the processing

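The lower levels of Dio2 and Plin4 in low WSS kept their direction and passed an adjusted p of 0.05 under every alternative in which they were tested. The number of fat cell genes that passed, 6 in all, was 3 without the pair as a block (no replicate block), 3 with trend and robust estimation, 3 in pairs 4 to 14 alone, 2 in the methods' paired t-test, 2 with Tagln and Cnn1 as covariates, and 2 to 16 when each pair was left out in turn. The number higher in low WSS, 3 in all, was 0 without the pair as a block, in the paired t-test, with trend and robust estimation, with Tagln and Cnn1, in pairs 4 to 14 alone and with Adipoq as a covariate, 1 with no filter on level, and 0 to 14 with each pair left out. Without the block the calls of Lpl, Fabp4 and Acsl1 were lost and no other call changed. The number lower, 3 in all, was 8 with Adipoq as a covariate. With Tagln and Cnn1 as covariates 3492 probe sets passed, against 5644. In pairs 4 to 14 alone 10 genes that had not passed turned negative, namely Pnpla2 (-0.27), Acacb (-0.28), Cebpa (-0.24), Pnpla3 (-0.09), Retn (-0.08), Ppargc1a (-0.06), Lipe (-0.05), Cpt1b (-0.05), Angptl4 (-0.03) and Ucp3 (-0.01). Leaving out pairs 1 to 3, known to be largely positive in these genes, lowers such differences by itself. With each pair left out, Pnpla2 ran from -0.08 to 0.15, Acacb from -0.03 to 0.29 and Ppargc1a from -0.06 to 0.07, and Ppargc1a was -0.00 with arrays centred on their medians. Less the change of Adipoq, the change of Lep was -0.58 and that of Retn -0.59 in pairs 4 to 14 alone, with adjusted p of 0.285 each in the exact sign-flip permutation test. With each pair left out, these values ran from -1.37 to -0.91 for Lep, from -1.22 to -0.83 for Retn and from -1.06 to -0.66 for Cidea. In low WSS pools 4 to 14 alone, r with Adipoq was -0.06 for Plin4 and -0.05 for Ppargc1a, and in high WSS r of Ppargc1b was -0.36 without the 2 pools farthest from the Adipoq median. The count of genes that followed Adipoq was 21 in low WSS and 26 in high WSS in pools 4 to 14 alone, and 24 over those pair differences. Apart from the filter on level and the pairs left out, which change the probe sets or pools used, the cause of these changes was not tested. No detection calls were used here, so low levels, as of Lep, Elovl3 and Retn, were not set against background.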
